A study of Homo sapiens with 9 samples.

Results

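The genes described here build, branch, elongate and cap actin filaments: the subunits of the Arp2/3 complex, the WAVE complex and N-WASP that switch it on, cortactin and coronins, formins, capping protein with its partners, and a small set of severing, monomer-recycling and spectrin genes. They were picked by gene symbol, as a list drawn up with earlier results of these libraries known. Of 40 symbols on the list, 38 had a row in the deposited table of 16630 genes, and CYFIP2 and VIL1 had none. RNA was sequenced from H1650, a human lung cancer line long kept in culture, and the labels give day 3 for all libraries. Control cells were transfected with a non-targeting siRNA pool, siMENA cells with pooled siRNAs against ENAH, and siMENA11a cells with 3 mixed siRNAs directed at its exon 11a, each at 20 nM. ENAH encodes hMENA, and exon 11a marks its epithelial isoform, hMENA11a. All groups were transfected with the same lipid reagent, and each had 3 libraries that the labels call biological replicates, so n = 3 per group throughout. All 9 libraries come from 1 cell line, and nothing says that replicates were separate cultures beyond that name, so the p-values measure the spread between these libraries.

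As background, an actin filament grows at its barbed end and loses subunits at its pointed end. The Arp2/3 complex, a pair of actin-related proteins held by ARPC subunits, binds the side of a filament and starts a branch when a WAVE or WASP protein activates it, and the branched network pushes the front edge of a migrating cell. Formins stay on the barbed end and add actin to unbranched filaments. Capping protein, a dimer of an alpha and a beta chain, closes the barbed end, and hMENA, a member of the Ena/VASP family, is known to protect growing barbed ends from it.

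Short sequences are shown first so that the letters of exon 11a can be read beside those in members called lower. The lowest member of each comparison, CAPZA1 under siMENA11a and ARPC1A under siMENA, holds none of the words searched for that siRNA group. Exon 11a of ENAH lies at chr1:225504991-225505053 of GRCh38 on the minus strand and is 63 bases long. Capitals mark the stretch made of the overlapping 7-base words CCAAGGA and CAAGGAA.
ENAH exon 11a: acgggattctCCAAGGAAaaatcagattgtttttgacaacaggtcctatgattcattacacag
The same words were searched in the longest annotated 3′ UTR of each gene (GENCODE release 29, sense strand only). All 4 windows below come from members that were lower with the exon 11a siRNAs.
ARPC1A, chr7:99366002-99366031, plus strand: ggaagccagccCCAAGGAAacactgaaaac
ARPC1B, chr7:99394647-99394676, plus strand: tcttacctattCAAGGAAtacgtgcctttt
DIAPH3, chr13:59665674-59665703, minus strand: aataagtgtttCAAGGAAagttttcctaag
FMNL1, chr17:45247017-45247046, plus strand: aggctgaggctCAAGGAAggtggtcctcag
For the siMENA pool the words were CAGAATA and AGAATAA, which also overlap, and the 4 members shown were lower with that pool.
CTTN, chr11:70436542-70436571, plus strand: attaaagaattCAGAATAAacattttttga
TWF1, chr12:43793948-43793977, minus strand: aatggacattcCAGAATAtagatgtgatta
ARPC5, chr1:183624849-183624878, minus strand: gacataacagaAGAATAAggtctgaatctt
TMOD3, chr15:51909092-51909121, plus strand: gtcatttgtgtAGAATAAtttgaacattgt
Both word pairs came from an earlier analysis of these same libraries, where they were the strongest in the same comparisons, so a high share among the genes that fell was built in. The siRNA sequences themselves were not used, so the words are not known to be part of them. A match describes the letters and shows no binding.

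ENAH was measured first as a check of the labels. It stood at 26.05, 30.04 and 26.12 FPKM (fragments per kilobase of transcript, scaled to the mapped fragments of the library) in control replicates 1 to 3, at 4.43, 5.79 and 5.57 FPKM under siMENA and at 9.98, 11.0 and 10.3 FPKM under siMENA11a. Every library of both siRNA groups lay below every control library, at a mean of 19.2% and 38.1% of control. The log2 fold changes were -2.18 (SE 0.09, limma adjusted p 6.41e-06) and -1.31 (SE 0.09, adjusted p 6.29e-05), and an exact two-sided permutation test gave p = 0.1, the smallest value that 3 against 3 libraries allow. The same smallest value holds for every member below whose groups do not overlap. Values are per gene, so the exon 11a isoform was not measured apart. The values of a library summed to between 558754 and 592930 FPKM. Without read counts the absolute depth is unknown, and no counting interval is given. Depth relative to control replicate 1 was roughly estimated from the commonest ratio of very low values. It ran from 0.91 in siMENA11a replicate 3 to 1.58 in control replicate 3 and siMENA replicate 3. All 7 epithelial markers searched were high, at means of 127 to 1446 FPKM, and their summed level was 4940 to 5250 FPKM in control, 4830 to 5040 under siMENA and 4050 to 4550 under siMENA11a. Marker sums of other cell types, in the same order of groups, were 5.49 to 9.83, 6.46 to 11.0 and 8.82 to 13.2 FPKM for 5 fibroblast genes, 12.4 to 17.8, 9.97 to 13.2 and 14.9 to 21.2 for 4 leukocyte genes, and 1.01 to 1.32, 0.809 to 0.985 and 1.41 to 1.66 for 4 endothelial genes. DCN, LUM, PDGFRB, PTPRC, CD3E, MS4A1 and KDR had no row, and the highest markers of these lists were FAP at 7.05, ITGB2 at 8.91 and TEK at 0.881 FPKM. The epithelial sum was lower and the endothelial sum higher in all siMENA11a libraries than in all control libraries, and their part in the results below was not tested. In bulk RNA, a change in the cells present and a change in RNA per cell cannot be told apart.

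Most of the members were abundant. Their mean level over the 9 libraries had a median of 58.8 FPKM against 10.8 FPKM for all 13273 genes tested, and 13 of 38 reached 100 FPKM, as 6.1% of all genes tested did. The Arp2/3 subunits had a median of 123 FPKM, led by ARPC3, a small subunit with the highest level of any member (327 FPKM), and the lowest of them was ARPC5L, the close relative of ARPC5, at 38.5 FPKM. ARPC3 measured 339, 326 and 338 FPKM in control, 320, 296 and 314 FPKM under siMENA and 339, 316.5 and 354 FPKM under siMENA11a, and 3 pseudogenes carry its name. Pseudogenes are also named after ACTR3 (2) and after TWF1, WASF1, ABI1 and CAP1 (1 each). Neither ARPC3 nor ACTR3 had a value with a decimal point in any library, so their level rests on the same division by 1000 as other genes, which could not be checked within the gene. Capping protein and the twinfilins, actin monomer binders that also bind capping protein, lay between 58.0 FPKM for TWF2 and 121.5 FPKM for CAPZA2. In the WAVE group NCKAP1, a scaffold subunit, was highest at 105 FPKM, and of the WAVE proteins themselves WASF2 (16.9 FPKM) stood above WASF3 (3.57 FPKM) and WASF1 (1.19 FPKM) in every library. NCKAP1 lay at 96.9, 103 and 104 FPKM in control, 99.7, 102 and 109 FPKM under siMENA and 105.5, 111 and 117 FPKM under siMENA11a. WASF1 lay at 1.17, 1.40 and 0.918 FPKM, then 0.859, 1.23 and 1.35 FPKM, then 1.15, 1.49 and 1.15 FPKM, with overlap between all groups. The less abundant coronin, CORO1C, measured between 23.6 and 32.1 FPKM, CAP1 between 103.5 and 116 FPKM and GSN between 92.9 and 128 FPKM in the 9 libraries. Formins were the least abundant, with a median of 7.64 FPKM. FMNL2, a formin of protrusive cell edges, led them at 15.6 FPKM, and DIAPH2 lay between 0.0847 and 0.434 FPKM in the 9 libraries and was not tested.

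**Figure D1:**
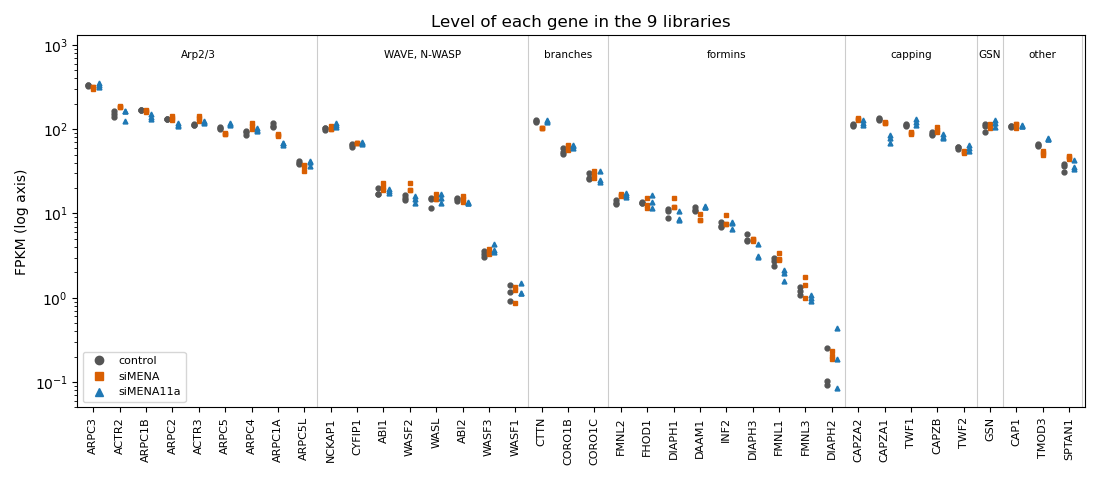
Level of each of the 38 genes in every library (vertical axis, FPKM on a log scale), ordered by role and, within a role, by mean level; grey circles are control, orange squares siMENA and blue triangles siMENA11a libraries. Arp2/3 and capping genes have medians of 123 and 108 FPKM, and formins one of 7.64 FPKM.

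The first comparison asked how these genes responded to the siRNA pool against all ENAH transcripts. Under siMENA 6 members fell, ARPC1A, ARPC5, CTTN, DAAM1, TWF1 and TMOD3, and 6 rose, ACTR3, ARPC4, WASF2, FMNL2, CAPZA2 and SPTAN1. None changed 2-fold: log2 fold changes ran from -0.38 for ARPC1A to 0.38 for SPTAN1. The 12 of 37 tested members are 32.4%, beside 18.6% of all genes tested. The count fell to 6 (16.2%, beside 10.9% of all genes) without control replicate 3 and to 7 (18.9%) without control replicate 1, siMENA replicate 1 or siMENA replicate 2, beside 11.7%, 10.1% and 11.8% of all genes. With all libraries the shares were 10.3% higher and 8.24% lower over all genes and 16.2% each way among the members. The members' median log2 fold change was 0.05 and that of all genes 0.04. In absolute size the medians were 0.16 and 0.14. The members were more abundant than most genes tested, and the shares here and below are not matched for level. In 19 of 37 members (51.4%) the siMENA and control libraries did not overlap, as in 40.1% of all genes. Over all genes the balance of directions moved with scaling, from 1369 higher and 1094 lower to 1050 and 1345 with median-ratio scaling and 1174 and 1270 with quantile normalization. Among the members these scalings gave 6 and 6, and 6 and 7, but the balance moved when 1 library was left out: 1 higher and 6 lower without control replicate 1, 1 and 5 without control replicate 3, and 2 and 5 without siMENA replicate 1 or siMENA replicate 2.

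Within the Arp2/3 complex 2 subunits fell, 2 rose and 5 did not pass. ARPC1A, one of a pair of exchangeable beta-propeller subunits, measured 107, 118 and 109 FPKM in control replicates 1 to 3 and 85.2, 87.8 and 82.2 FPKM under siMENA. All siMENA libraries lay below all control libraries, and the log2 fold change was -0.38 (SE 0.05, adjusted p 0.00162). ARPC5, a small subunit with the paralog ARPC5L, measured 101, 103 and 105 FPKM in control and 87.4, 90.1 and 87.0 FPKM under siMENA, a mean of 85.4% of control (log2 fold change -0.22, SE 0.05, adjusted p 0.00983). ARPC5L went from 39.8, 42.5 and 39.2 FPKM to 37.3, 36.2 and 31.9 FPKM, which did not pass (-0.20, adjusted p 0.0857). It passed with a replicate block (0.0279) and with quantile normalization (0.0471). Of the actin-related proteins, which form the first subunits of the new branch, ACTR3 rose from 112, 113 and 115 FPKM to 142, 137.5 and 124 FPKM (0.24, SE 0.06, adjusted p 0.0191). ACTR2 measured 141, 152 and 163 FPKM in control and 182, 187 and 185 FPKM under siMENA, without overlap, but did not pass (0.28, adjusted p 0.0711). It passed with only these groups in the fit (0.0176) or without siMENA11a replicate 3 (0.0124). ARPC4, which forms the core of the complex with ARPC2, rose by 0.26 (SE 0.07, adjusted p 0.0263), and a read-through gene, ARPC4-TTLL3, overlaps it. ARPC3, ARPC2 and ARPC1B did not pass, at -0.11, 0.04 and -0.03.

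Of the 8 WAVE and N-WASP members tested, WASF2, the WAVE protein most abundant here, was the one that passed. It measured 14.6, 15.4 and 16.7 FPKM in control and 19.1, 19.2 and 22.8 FPKM under siMENA, 131% of control (0.36, SE 0.09, adjusted p 0.0196). The highest value was in siMENA replicate 3, and the groups did not overlap. WASF1, WASF3, ABI1, ABI2, CYFIP1, NCKAP1 and WASL, which encodes N-WASP, lay between -0.01 and 0.21 and did not pass. ABI1, an adaptor subunit of the WAVE complex, was called with a replicate block (0.21, adjusted p 0.0323) and not without it (adjusted p 0.12). CTTN, which encodes cortactin, a protein that holds branches in place, was lower with little spread. It measured 130, 122 and 126 FPKM in control and 102, 103 and 103 FPKM under siMENA (-0.29, SE 0.05, adjusted p 0.0033). The coronins CORO1B and CORO1C, which act on branch turnover, did not pass (0.16 and 0.08).

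Of 8 formins tested, DAAM1 fell and FMNL2 rose. DAAM1, a formin of the Wnt planar polarity pathway, measured 10.6, 11.1 and 11.9 FPKM in control and 8.28, 8.41 and 9.85 FPKM under siMENA (-0.32, SE 0.07, adjusted p 0.0152). FMNL2 measured 13.0, 14.4 and 13.5 FPKM in control and 16.6, 16.2 and 16.9 FPKM under siMENA (0.27, SE 0.06, adjusted p 0.0134). Neither pair of groups overlapped. DIAPH1, the diaphanous formin downstream of RHOA, measured 8.91, 10.8 and 11.3 FPKM in control and 11.9, 12.1 and 15.2 FPKM under siMENA, which did not pass (0.31, adjusted p 0.108).

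At the filament ends, TWF1 and TMOD3 fell while CAPZA2 and SPTAN1 rose. TWF1 measured 108, 116 and 112 FPKM in control and 88.9, 91.8 and 89.1 FPKM under siMENA (-0.31, SE 0.06, adjusted p 0.00713), and its paralog TWF2 went from 61.4, 60.8 and 57.6 FPKM to 52.5, 53.2 and 54.9 FPKM without passing (-0.16, adjusted p 0.102, and 0.0491 with only these groups in the fit). TMOD3, a tropomodulin that caps pointed ends, measured 64.3, 62.9 and 67.1 FPKM in control and 52.7, 50.1 and 55.4 FPKM under siMENA (-0.29, SE 0.05, adjusted p 0.00489). CAPZA2, an alpha chain of capping protein, rose from 114, 110.5 and 112 FPKM to 134, 133.5 and 128 FPKM (0.23, SE 0.06, adjusted p 0.0208). SPTAN1, alpha II spectrin of the membrane skeleton, measured 31.4, 38.8 and 36.2 FPKM in control and 44.6, 48.0 and 46.6 FPKM under siMENA (0.38, SE 0.10, adjusted p 0.0242). CAPZA1, CAPZB, GSN, the filament-severing gelsolin, and CAP1, which recycles actin monomers, did not pass, at -0.14, 0.14, 0.05 and 0.04.

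ARPC1A, ARPC5, CTTN, TWF1 and TMOD3 kept their calls in every alternative run in which they could be tested, and DAAM1 and each of the 6 rises lost theirs in at least 1. DAAM1 was not called without control replicate 3, siMENA replicate 1 or siMENA replicate 2 (adjusted p 0.0576 to 0.0663, 0.00695 to 0.0663 over all alternatives). For ACTR3 the call ended on removing any single control library, siMENA replicate 1 or siMENA replicate 2 (0.0502 to 0.0802, 0.00908 to 0.0802), and ARPC4 without control replicate 1, control replicate 3 or siMENA replicate 1 or 2 (0.0684 to 0.101, 0.0155 to 0.101). CAPZA2 was not called without control replicate 2, control replicate 3 or siMENA replicate 1 or 2 (0.0606 to 0.0758, 0.009 to 0.0758), and WASF2 without control replicate 1, control replicate 2 or siMENA replicate 3 (0.0517 to 0.0712, 0.0142 to 0.0712). SPTAN1 was not called without control replicate 1 or 3 or any one siMENA library (0.056 to 0.0836, 0.00586 to 0.0836), and FMNL2 without control replicate 1 or 3 (0.0513 to 0.0517, 0.0104 to 0.0517).

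**Figure D2:**
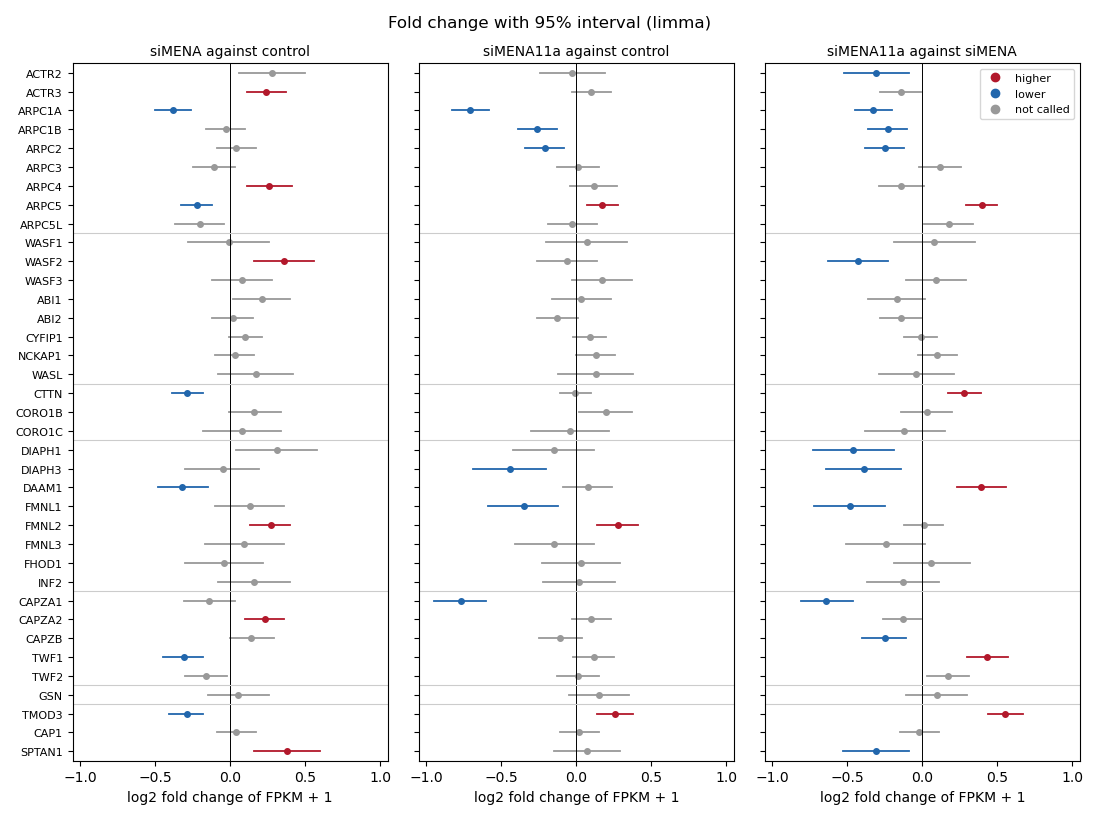
Log2 fold change of FPKM + 1 with its 95% interval from limma for the 37 genes tested, in the 3 comparisons, ordered by role; red marks genes called higher, blue genes called lower and grey genes not called. CAPZA1 and ARPC1A stand furthest left with the exon 11a siRNAs (-0.77 and -0.71), and TMOD3 is left of 0 under siMENA and right of it under siMENA11a.

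The second comparison asked how the genes responded to the exon 11a siRNAs. Under siMENA11a 6 members fell, CAPZA1, ARPC1A, DIAPH3, FMNL1, ARPC1B and ARPC2, and 3 rose, FMNL2, TMOD3 and ARPC5. The 9 of 37 are 24.3%, beside 19.5% of all genes tested. The count fell to 5 (13.5%) without control replicate 2, siMENA11a replicate 1 or siMENA11a replicate 3, beside 13.2%, 13.3% and 15.6% of all genes, so the members' share was then near or below that of all genes. Of the members 16.2% fell and 8.11% rose, beside 11.3% and 8.16% of all genes, so the share that rose was near that of all genes. The median log2 fold change of the members was 0.02 and that of all genes -0.01, and in absolute size 0.12 and 0.13. The siMENA11a and control libraries did not overlap in 13 of 37 members (35.1%), as in 36.7% of all genes.

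The lowest of them was CAPZA1, the other alpha chain of capping protein. CAPZA1 (chromosome 1, 112619173 to 112671619, plus strand, GRCh38) had 128, 132.5 and 137 FPKM in control and 85.6, 67.8 and 79.0 FPKM under siMENA11a, a mean of 58.4% of control (-0.77, SE 0.08, adjusted p 0.000242). All siMENA11a libraries lay below all control libraries, with siMENA11a replicate 2 the lowest. The alternative alpha chain CAPZA2 and the beta chain CAPZB did not pass. CAPZA2 measured 118, 114 and 130 FPKM against 114, 110.5 and 112 FPKM in control (0.10, adjusted p 0.263). CAPZB measured 81.7, 87.3 and 78.95 FPKM against 88.2, 93.85 and 85.5 FPKM in control (-0.11, adjusted p 0.27). The longest annotated 3′ UTR of CAPZA1 holds neither exon 11a word.

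In the Arp2/3 complex ARPC1A, ARPC1B and ARPC2 fell. ARPC1A measured 107, 118 and 109 FPKM in control and 68.5, 65.5 and 69.0 FPKM under siMENA11a, 60.9% of control (-0.71, SE 0.05, adjusted p 6.77e-05). The siMENA11a libraries also lay below all siMENA libraries, and the direct contrast of the siRNA groups was -0.33 (SE 0.05, adjusted p 0.00137). ARPC1B, its paralog, which lies on the same strand of chromosome 7 just downstream (99374249 to 99394816, after ARPC1A at 99325910 to 99366262, GRCh38), measured 170, 168 and 168 FPKM in control and 141, 132 and 149.5 FPKM under siMENA11a (-0.26, SE 0.06, adjusted p 0.0121). ARPC2, one of the core pair with ARPC4, went from 132, 131 and 134 FPKM to 114, 119 and 110.0 FPKM (-0.21, SE 0.06, adjusted p 0.0281). ARPC5 rose from 101, 103 and 105 FPKM to 113, 115.5 and 120.0 FPKM (0.17, SE 0.05, adjusted p 0.0301). ACTR2, ACTR3, ARPC3, ARPC4 and ARPC5L did not pass and lay between -0.03 and 0.12. ACTR2 was uneven under siMENA11a, at 162, 163 and 126 FPKM.

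No gene of the WAVE group passed in limma, with values between -0.13 for ABI2 and 0.17 for WASF3. One had an unadjusted p below 0.05, NCKAP1 (0.13, unadjusted p 0.0487). CTTN measured 128, 125 and 122 FPKM, overlapping the control libraries (-0.01, adjusted p 0.915). CORO1B was called higher with a replicate block (0.20, adjusted p 0.0338) or without control replicate 1 (0.047), and not otherwise (adjusted p 0.103).

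Among the formins, DIAPH3 and FMNL1 fell and FMNL2 rose. DIAPH3, a diaphanous formin with a role in cell division, measured 4.82, 5.69 and 4.74 FPKM in control and 3.04, 4.32 and 3.15 FPKM under siMENA11a (-0.44, SE 0.11, adjusted p 0.0207). FMNL1, a formin best known from blood cells, was low throughout, at 2.74, 2.97 and 2.35 FPKM in control and 1.95, 2.15 and 1.56 FPKM under siMENA11a (-0.35, SE 0.10, adjusted p 0.041). FMNL2 measured 15.9, 17.7 and 16.6 FPKM (0.28, SE 0.06, adjusted p 0.0111), close to its level under siMENA. Its 3 control libraries lay below all 6 siRNA libraries. FMNL3 went from 1.08, 1.35 and 1.20 FPKM to 0.998, 1.07 and 0.908 FPKM (-0.15, adjusted p 0.42). TMOD3 rose from 64.3, 62.9 and 67.1 FPKM to 77.0, 77.0 and 79.1 FPKM, 120% of control (0.26, SE 0.05, adjusted p 0.0078), whereas it had fallen under siMENA.

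CAPZA1, ARPC1A, ARPC1B, FMNL2 and TMOD3 kept their calls in every alternative run in which they could be tested. For ARPC2 the call ended without any single control library, siMENA11a replicate 1 or siMENA11a replicate 3 (adjusted p 0.0633 to 0.0914, 0.0213 to 0.0914 over all alternatives), and DIAPH3 without control replicate 2 or siMENA11a replicate 1 or 3 (0.0644 to 0.0727, 0.00369 to 0.0727). FMNL1 was not called without control replicate 1 or 2, siMENA replicate 1 or 2 or siMENA11a replicate 1 or 3, or with only these groups in the fit (0.053 to 0.127, 0.0321 to 0.127). ARPC5 was not called without any one control library or siMENA11a replicate 1 or 3, nor with only these groups in the fit, nor without the mean-variance trend (0.0514 to 0.0926, 0.0149 to 0.0926).

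**Figure D3:**
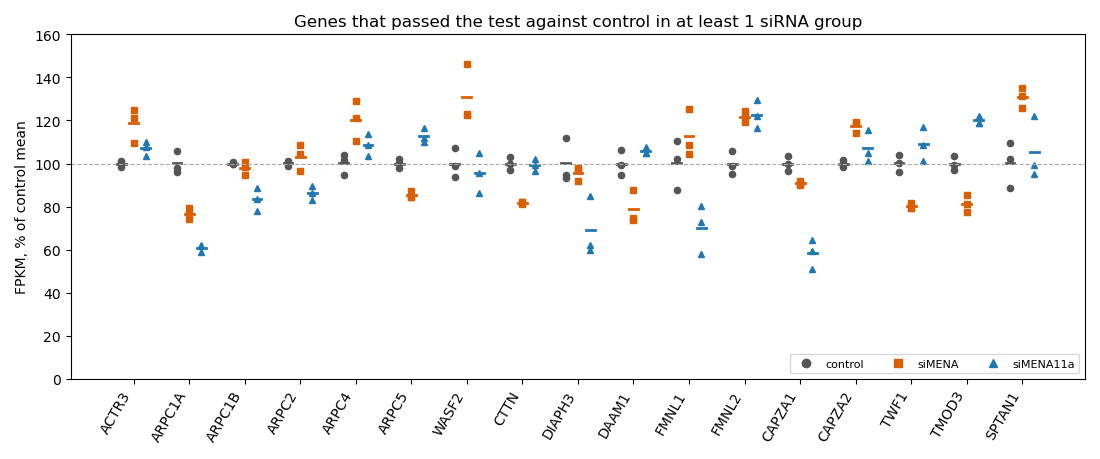
FPKM of each library as a percentage of the control mean, for the 17 genes called against control in at least 1 siRNA group; points are libraries and short lines are group means. ARPC1A is lower in both siRNA groups (76.6% and 60.9%), FMNL2 is higher in both (122% and 123%), and TMOD3 and ARPC5 are below control under siMENA and above it under siMENA11a.

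Both comparisons use the same control libraries. Of the 37 members, 4 were called in both: ARPC1A lower in both, FMNL2 higher in both, and ARPC5 and TMOD3 lower under siMENA and higher under siMENA11a. The contrast of the siRNA groups with each other does not use the control means and asks where the pools differed. There 11 members were lower under siMENA11a than under siMENA and 5 were higher, 43.2% of the 37 beside 36.6% of all genes tested. Over all genes 22.2% were lower and 14.4% higher. The siRNA groups did not overlap in 18 of 37 members (48.6%), as in 47.8% of all genes. The balance of directions depended on the scaling: 9 members were lower and 7 higher with median-ratio scaling, and 9 lower and 8 higher with quantile normalization, while over all genes these scalings gave 2316 lower with 2307 higher and 2365 lower with 2283 higher. The members' median was -0.12 beside -0.05 for all genes, and in absolute size 0.17 beside 0.18.

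The clearest difference between the pools was in TMOD3, at 52.7, 50.1 and 55.4 FPKM under siMENA and 77.0, 77.0 and 79.1 FPKM under siMENA11a, 147% of siMENA (0.55, SE 0.05, adjusted p 5.63e-05). ARPC5 differed in the same direction (0.40, SE 0.05, adjusted p 0.000206), as did TWF1 (0.43, SE 0.06, adjusted p 0.00054). TWF1 measured 122, 113 and 131 FPKM under siMENA11a, above all siMENA libraries and overlapping control. CTTN and DAAM1 were also higher under siMENA11a than under siMENA, by 0.28 and 0.39 (adjusted p 0.00149 and 0.00254). For CTTN, TWF1 and DAAM1 the level under siMENA11a did not differ from control beyond the test (-0.01, 0.12 and 0.08), with 95% intervals of -0.11 to 0.10, -0.02 to 0.25 and -0.09 to 0.24.

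The other direction was led by CAPZA1, at 122, 119 and 119.8 FPKM under siMENA and 85.6, 67.8 and 79.0 FPKM under siMENA11a (-0.64, SE 0.08, adjusted p 0.000233). CAPZB, the chain that pairs with it, was lower too (-0.25, SE 0.06, adjusted p 0.0134). WASF2 measured 14.9, 16.3 and 13.4 FPKM under siMENA11a against 19.1, 19.2 and 22.8 FPKM under siMENA (-0.43, SE 0.09, adjusted p 0.00463), and FMNL1 showed -0.48 (adjusted p 0.00566). DIAPH1 measured 8.62, 10.8 and 8.30 FPKM against 11.9, 12.1 and 15.2 FPKM (-0.46, SE 0.12, adjusted p 0.0155), without overlap. DIAPH3 (-0.39, adjusted p 0.02), SPTAN1 (-0.31, adjusted p 0.0328), ACTR2 (-0.31, adjusted p 0.0321), ARPC2 (-0.25, adjusted p 0.00685) and ARPC1B (-0.23, adjusted p 0.0112) were lower too. ARPC5L was called higher with median-ratio scaling (0.0386), with quantile normalization (0.0279), without siMENA11a replicate 3 (0.0395) or with a replicate block (0.18, adjusted p 0.0288, without it 0.0889) and ABI1 lower (-0.17, adjusted p 0.0403, without it 0.143).

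Of the 16 calls, 11 were kept in every alternative run in which they could be tested. For DIAPH1 the call ended without siMENA replicate 3, siMENA11a replicate 1 or siMENA11a replicate 3 (adjusted p from 0.0536 to 0.0542, 0.00627 to 0.0542 over all alternatives), DIAPH3 without siMENA replicate 1 or 2 or siMENA11a replicate 1 or 3 (0.0578 to 0.0744, 0.00221 to 0.0744), and CAPZB without siMENA replicate 1 (0.0565, 0.00566 to 0.0565). ACTR2 was not called without any one siMENA library or siMENA11a replicate 3, nor with median-ratio scaling or quantile normalization (0.0614 to 0.0815, 0.0208 to 0.0815). SPTAN1 was not called without any one siMENA library or siMENA11a replicate 1 or 3, nor with those scalings (0.0552 to 0.108, 0.00493 to 0.108).

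Paralogs that fill the same place in a complex were set against each other within each library, since FPKM is scaled to length. Of the ARPC1 transcripts, ARPC1A made up 38.6%, 41.2% and 39.3% in control, 33.4%, 34.7% and 34.0% under siMENA and 32.7%, 33.2% and 31.6% under siMENA11a. Every siRNA library lay below every control library, and the siMENA11a libraries lay below the siMENA libraries (exact permutation p = 0.1 for each pair of groups). The summed level of ARPC1A and ARPC1B was 279.6 ± 5.2 FPKM in control, 250.0 ± 7.1 FPKM under siMENA and 208 ± 11 FPKM under siMENA11a (mean ± SD), without overlap between any of the groups.

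For the alpha chain of capping protein, CAPZA1 made up 52.9%, 54.5% and 55.1% of the CAPZA1 and CAPZA2 sum in control, 47.7%, 47.2% and 48.3% under siMENA, and 42.1%, 37.4% and 37.9% under siMENA11a. CAPZA1 was thus the larger part in all control libraries and the smaller in all 6 siRNA libraries. The sum was 244.8 ± 3.8 FPKM in control and 252 ± 4 FPKM under siMENA, with overlap (exact permutation p = 0.2), and 198 ± 14 FPKM under siMENA11a, below all other libraries. The ARPC5 share of ARPC5 and ARPC5L was 71.8 ± 1.0%, 71.5 ± 1.5% and 74.5 ± 2.0% in control, siMENA and siMENA11a, with overlap in each comparison, while their sum was 143.7 ± 2.7, 123 ± 4 and 156.1 ± 0.4 FPKM, without overlap. TWF1 made up 65.2 ± 1.3%, 62.7 ± 0.7% and 66.9 ± 0.2% of the twinfilin sum.

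**Figure D4:**
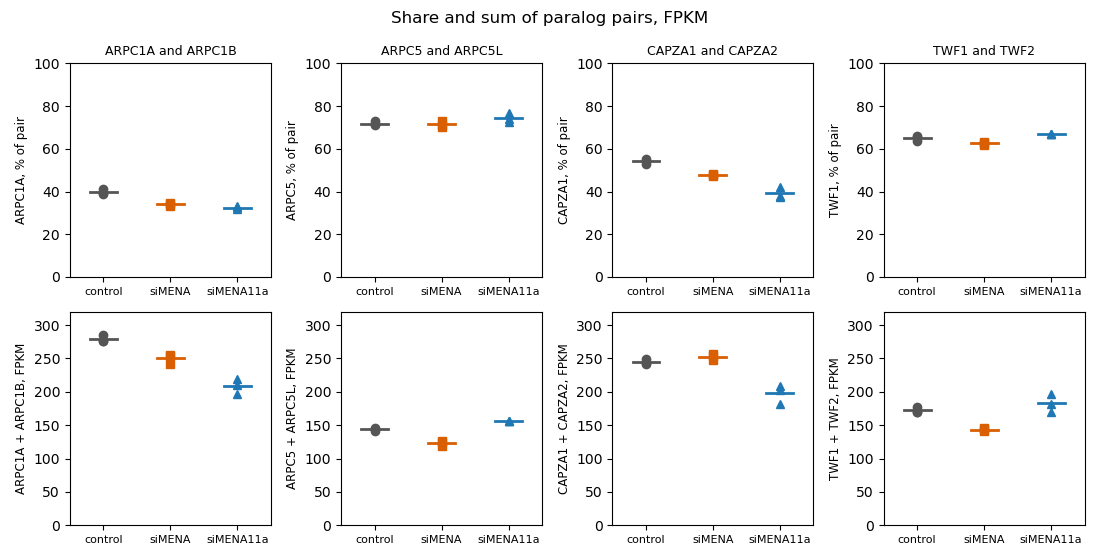
Share of the first paralog in the sum of each pair (top, percent of FPKM) and that sum (bottom, FPKM) in the 9 libraries; points are libraries and lines are group means. The CAPZA1 share goes from a mean of 54.2% in control to 47.7% under siMENA and 39.1% under siMENA11a, and the ARPC5 and ARPC5L sum is lowest under siMENA and highest under siMENA11a.

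The words shown at the start were counted over all members with an annotated 3′ UTR. Of the 6 members that fell under siMENA11a, 4 hold CCAAGGA or CAAGGAA: ARPC1A, ARPC1B, DIAPH3 and FMNL1. Among the 28 that did not pass 6 hold one, and of the 3 that rose FMNL2 does. Over all genes tested and searched, the words are in 36.3% of the 1356 called lower, 23.1% of those called higher and 22.7% of those not called. Median 3′ UTR lengths of these genes were 1220, 1726 and 1344 bases, in the same order, and the shares are not adjusted for length. The 3′ UTR of ARPC1A is 328 bases long, and 5.5% of tested genes with a 3′ UTR of 0.8 to 1.25 times that length hold a word. For ARPC1B, with 368 bases, it is 6.6%, for FMNL1 10.1% and for DIAPH3 15.7%. The words were picked from these same comparisons, so a share above these rates among fallen members was built in. ARPC1A and ABI2, which did not pass (-0.13), are the members that hold the joined 8 bases CCAAGGAA, as 5.21% of all genes searched do.

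Of the 6 members that fell under siMENA, 4 hold CAGAATA or AGAATAA: ARPC5, CTTN, TWF1 and TMOD3. ARPC1A and DAAM1 hold neither. Of the 6 that rose CAPZA2 holds one, and of the 25 that did not pass 11 do, among them CAPZA1. Over all genes the words are in 52.3% of those called lower, 16.3% of those called higher and 25.6% of those not called. Median 3′ UTR lengths of these genes were 1944, 1259 and 1327 bases, in the same order, and the shares are not adjusted for length. CTTN is the only member with the joined 8 bases CAGAATAA, which 6.18% of all genes searched hold. For the long 3′ UTRs of TMOD3 (6915 bases) and ARPC5 (6686 bases) a word is common: 74.5% and 74.1% of tested genes with a 3′ UTR of similar length hold one, against 22.9% for CTTN and 28.7% for TWF1. Members not tested and genes without a matched 3′ UTR are outside these counts. These words too were picked from these same comparisons, so the shares and rates above are no test of them. The part of these words in the changes was not tested.

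Other genes of the same machinery were taken from fixed lists of 87 symbols, of which 78 had a row and 63 were tested. Under siMENA 3 rose and 4 fell (11.1% of 63), under siMENA11a 4 rose and 6 fell (15.9%), and between the siRNA groups 9 were higher and 17 lower under siMENA11a (41.3%), beside 18.6%, 19.5% and 36.6% of all genes. Of 22 further Arp2/3 partners, GMFB, glia maturation factor beta, which takes branches apart, fell under siMENA from a mean of 47.2 to 35.4 FPKM (-0.40, adjusted p 0.00447) and rose to 61.1 FPKM under siMENA11a (0.37, adjusted p 0.00611). ARPC5 and TMOD3 had the same directions. WHAMM, an Arp2/3 activator at membranes, fell under siMENA from 4.58 to 3.26 FPKM (-0.39, adjusted p 0.0105). KIAA1033, also called WASHC4, a subunit of the WASH complex that activates Arp2/3 on endosomes, was higher under siMENA11a than under siMENA (36.1 against 28.1 FPKM, 0.35, adjusted p 0.000916). CORO1A, a coronin at a low level, was lower under siMENA11a than under siMENA (0.745 against 1.85 FPKM, -0.68, adjusted p 0.0128). That call was lost without siMENA replicate 1 (0.053). BRK1, the small WAVE subunit, did not pass in any comparison (-0.14, -0.04 and 0.10).

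RHOA, the GTPase that opens diaphanous formins, fell under siMENA11a from 259.8 to 158 FPKM (-0.72, SE 0.08, adjusted p 0.000417) and did not pass under siMENA (0.09, adjusted p 0.457). The direct contrast of the siRNA groups was -0.81 (adjusted p 6.47e-05). RHOF fell under siMENA11a from 41.2 to 32.3 FPKM (-0.34, adjusted p 0.0181), a call lost without control replicate 2 (0.0593) or 3 (0.0694), with 0.0167 to 0.0694 over all alternatives. Of 15 other capping, severing and monomer-binding genes, EPS8, a barbed-end capper, rose under siMENA11a from 16.2 to 25.4 FPKM (0.62, adjusted p 0.0113), and CAPG, a gelsolin relative that caps without severing, fell from 261.5 to 206 FPKM (-0.35, adjusted p 0.0121). The EPS8 relatives went other ways. EPS8L1 rose under siMENA from 1.79 to 3.06 FPKM (0.55, adjusted p 0.0212) and was lower under siMENA11a than under siMENA (-0.68, adjusted p 0.0039). EPS8L2 fell under siMENA11a (-0.23, adjusted p 0.0241). The calls of EPS8L1 and EPS8L2 against control were lost in at least 1 alternative (adjusted p up to 0.0749 and 0.0823). CAP2, the relative of CAP1, fell under siMENA from 7.38 to 4.78 FPKM (-0.54, adjusted p 0.00746). Of 9 spectrin, adducin and band 4.1 genes, ADD3, an adducin that caps filaments and joins them to spectrin, rose under siMENA11a from 54.1 to 70.3 FPKM (0.37, adjusted p 0.00196). Of 3 actins tested, ACTG1 fell under siMENA11a from 700.2 to 559.6 FPKM (-0.32, adjusted p 0.0104), a call lost without control replicate 3 (0.0513) and with quantile normalization (0.0541), with 0.00751 to 0.0541 over all alternatives. ACTB went from 1549 to 1188 FPKM without passing (-0.39, adjusted p 0.0616). It passed with a replicate block (0.0436) and without siMENA11a replicate 2 (0.0146). All 3 actins were called lower under siMENA11a than under siMENA, as were 22.2% of all genes. ACTB showed -0.42 (adjusted p 0.0312), ACTG1 -0.21 (0.0355) and ACTA2, at 0.540 against 0.988 FPKM, -0.37 (0.0212). Each of these calls was lost in at least 1 alternative (adjusted p up to 0.0869, 0.158 and 0.0707).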

How the data were processed

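RNA from 9 libraries (3 groups of 3) was sequenced with a stranded, ribosome-depleted total RNA kit, per the labels' protocols. The deposited FPKM values per gene were made by the authors on hg19, per the submitters' processing notes, with an aligner and counter not given in the sources used here. Of 149670 values, 11524 (7.7%) were whole numbers read as having lost their decimal point, an inference from their size, and were divided by 1000. They were at least 198.2 times the median of their gene's values with a decimal point, except in 237 genes, ARPC3 and ACTR3 among them, that had no such value, so that their scale could not be checked. Of the member values 108 of 342 were divided, in 25 members. Genes with a missing value (1286) or a mean below 0.5 FPKM were left out, leaving 13273. Values were tested as log2(FPKM + 1), so fold changes of low genes are understated, with limma 3.58.1 in R 4.3.3 (group-only design over 9 libraries, mean-variance trend, 6 residual degrees of freedom). P-values were adjusted by Benjamini-Hochberg over all genes, and a gene was called at an adjusted p below 0.05. The test was checked on simulated data. Per-library values are given for members called with a log2 fold change of at least 0.3 in size, for the most and least abundant of each role, and for paralogs. Same-numbered siMENA and control libraries had positive correlations of their deviations (0.124, 0.378 and 0.196), so values with the replicate number as a block stand beside results they change. Pairs with different numbers lay between -0.242 and 0.113. In the other comparisons, same-numbered siMENA11a and control libraries gave 0.206, 0.425 and -0.0302, so not all deviated together. Same-numbered siMENA11a and siMENA libraries gave 0.0863, 0.309 and 0.0203, all positive. Pairs with different numbers there lay between -0.425 and 0.321 with control and between -0.24 and 0.205 with siMENA. Members, lists and sequence words were chosen with earlier results of these data known. Sequences are from GENCODE release 29 (GRCh38), and exon 11a was found as the ENAH exon of 63 bases.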

Additional observations from a re-analysis of the deposited data

How the results depend on the processing

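No called member reversed its direction in any alternative. With all genes holding a repaired value left out, 12 members could be tested in place of 37. Of these 12, 2 were called in siMENA against control, 3 in siMENA11a against control and 5 in siMENA11a against siMENA. The reported fits called 12, 9 and 16 of 37. Leaving out 1 library at a time gave 6 to 13 called members for siMENA against control, 5 to 9 for siMENA11a against control and 13 to 17 for siMENA11a against siMENA. The lowest counts came without control replicate 3 in the first, and without control replicate 2, siMENA11a replicate 1 or siMENA11a replicate 3 in the second. In the third the lowest count, 13 (35.1%), came without siMENA replicate 1, siMENA replicate 2 or siMENA11a replicate 1. The shares of all genes called were then 27.3%, 28.5% and 29.2%. With the replicate number as a block, 14, 10 and 18 of 37 members were called, and no member call was lost. That block also raised the calls over all 13273 genes tested, to 3149, 3431 and 5648. Over all genes, leaving out genes with a repaired value gave 1293, 1362 and 2716 calls among 8461 genes tested. The reported fits gave 2463, 2583 and 4857 among 13273, so these counts rest on different numbers of genes. Leaving out 1 library at a time gave 1346 (without siMENA replicate 1) to 2902, 1493 (without control replicate 3) to 2483, and 3626 to 4814. Calls were lost in at least 1 alternative by 7, 4 and 5 members, and 4, 1 and 8 members not called in the reported fits were called in at least 1. ENAH kept its direction and call throughout. Absolute depth is unknown, so low members such as FMNL1 and WASF1 carry a counting error that cannot be stated.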
